A study of Mus musculus with 4 samples.

Results

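The receptors for bone morphogenetic proteins (BMPs), activins and TGF-beta were followed as 8 genes listed by name: Bmpr1a, Bmpr2, Acvr1, Acvr1b, Acvr2a, Acvr2b, Tgfbr1 and Tgfbr2. They are 8 of the 21900 protein-coding genes of the mouse annotation used here. Every peak that shared at least 1 base with the span of such a gene was taken. The peaks came from CLIP-seq of MSI2, an RNA-binding protein of the Musashi family, in mouse intestinal epithelial cells. In CLIP-seq, RNA is crosslinked to protein with ultraviolet light, an antibody pulls the protein down, and the RNA pieces bound to it are read by sequencing. The WT group held 2 libraries of wild-type intestinal crypts, for which no doxycycline is recorded. The TRE-Msi2 group held 2 libraries of total epithelium from mice carrying the TRE-Msi2 transgene, taken after 24 hours of doxycycline. All mice had a C57BL6 background. Neither their ages nor the promoter that drives the doxycycline response is stated by the labels. Genotype, tissue fraction and doxycycline therefore differed together between the groups, and their parts cannot be told apart.

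These receptors are membrane serine/threonine kinases that work in pairs. A type II receptor binds the ligand with a type I receptor and phosphorylates it, and the type I receptor then phosphorylates Smad proteins, which carry the signal to the nucleus. In the intestine, BMP signalling is known to hold back the expansion of crypt stem cells, and TGF-beta signalling is known to restrain epithelial proliferation.

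The authors deposited 1 peak list per genotype, pooled over its 2 libraries, so the values carry no error between replicates and a difference between the lists could not be tested. How deeply the libraries were sequenced is unknown. The WT list held 12061 peaks and the TRE-Msi2 list 16939. Each peak has a score, made by the authors, that behaves as the number of reads in a bin of 200 nt. A peak as wide as 1 bin scored at least 15 in WT and at least 20 in TRE-Msi2. Taken as read counts, 15 has an exact Poisson 95% interval of 8.40 to 24.7 and 20 one of 12.2 to 30.9, for counting error only. At 3942 positions where both lists held a single-bin peak, the TRE-Msi2 score was a median of 1.52 times the WT score, with quartiles of 1.31 and 1.75. That ratio covers only positions called in both lists and does not separate depth from binding. RNA abundance was not measured, so more binding, more transcript per cell and more cells with the transcript cannot be told apart. Epithelial markers were covered by peaks in both lists (5 of 5, from Epcam to Krt20), as were 4 of 4 enterocyte, 3 of 3 Paneth and 3 of 3 goblet markers. Of 4 stem cell markers 2 held a WT peak and 3 a TRE-Msi2 peak. Of the immune markers 1 of 4 (Cd74) held peaks, and 0 of 5 stromal and 0 of 3 endothelial markers did in either list. All positions are 1-based on mm10.

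In the WT list, 1 of the 8 receptor genes held a peak, Bmpr1a, the main type I receptor for BMPs. Among all protein-coding genes 20.3% held a WT peak, and 29.4% of the 4146 genes with spans in the range of the receptors (39.6 kb to 120 kb) did. In the TRE-Msi2 list, 5 of the 8 held a peak: Bmpr1a, Bmpr2, Acvr1b, Acvr2a and Tgfbr1. Over all protein-coding genes that share was 24.9%, and in the receptors' span range it was 35.2%. The 4 receptors with peaks in the TRE-Msi2 list alone compare with 5.76% of all protein-coding genes and 7.86% in the span range. As a share of the genes with a TRE-Msi2 peak, that is 4 of 5 receptors, 23.2% of all protein-coding genes and 22.3% in the span range. Acvr1, Acvr2b and Tgfbr2 held 0 peaks in both lists. By type, 3 of the 4 type I receptors and 2 of the 4 type II receptors held a TRE-Msi2 peak. The receptors held 3 WT peaks covering 800 nt and 17 TRE-Msi2 peaks covering 4600 nt.

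**Figure D1:**
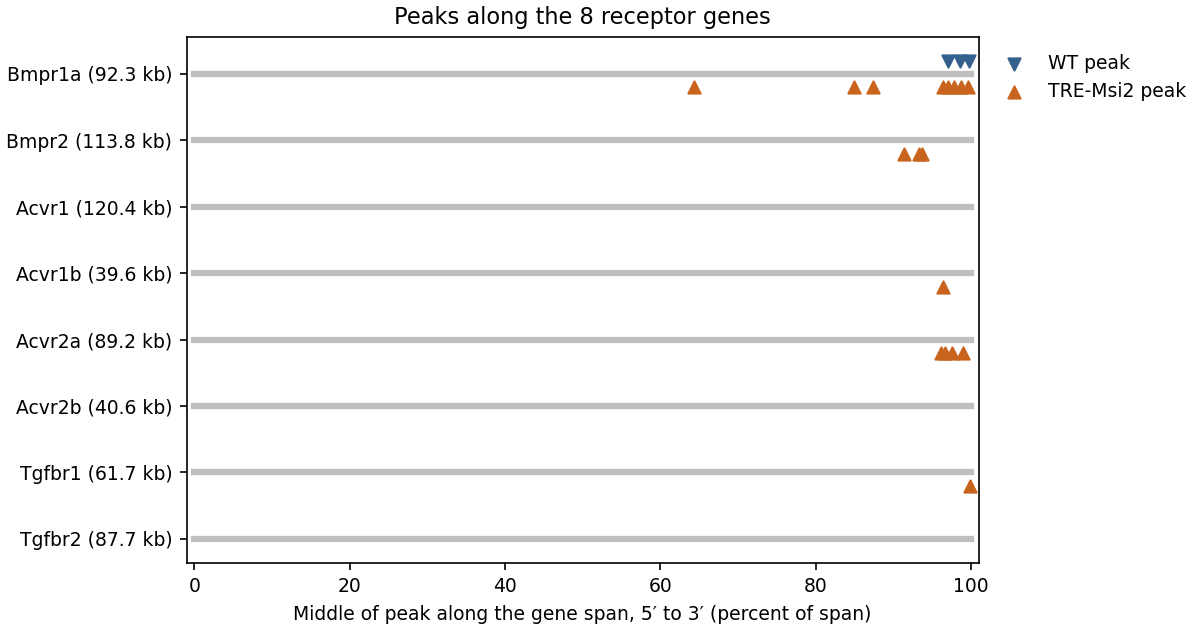
Place of every peak along the 8 receptor genes. The horizontal axis is the middle of the peak as a percent of the gene span from the 5′ to the 3′ end, the grey lines are the spans, and triangles pointing down and up are WT and TRE-Msi2 peaks. All 3 WT peaks lie in Bmpr1a, and 14 of the 17 TRE-Msi2 peaks lie in the last 10% of a span.

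All receptor peaks were on the transcribed strand, and 0 touched the span of another gene. Over single protein-coding genes of known strand, the opposite strand held 15.7% of the peaks in WT and 13.7% in TRE-Msi2. All 3 WT peaks, which are all in Bmpr1a, had their middle in the last 5 kb of the gene, as did 11 of the 17 TRE-Msi2 peaks. For peaks on the transcribed strand of genes in the receptors' span range, these shares were 59.7% in WT and 48.7% in TRE-Msi2. The 11 peaks were 5 in Bmpr1a, 4 in Acvr2a, 1 in Acvr1b and 1 in Tgfbr1, while Bmpr2 had 0 there. With single-bin peaks only, 5 of 11 TRE-Msi2 receptor peaks lay in the last 5 kb. With a p-value of 0.01 or less 7 of 13 did. By the last 10% of the span, 3 of 3 and 14 of 17 receptor peaks lay there, against 62.5% and 52.1% of peaks in such genes. Exons and untranslated regions were not used here, so a place near the gene end is given as a distance only.

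Bmpr1a, whose span covers positions 34411061 to 34503336 on the minus strand of chromosome 14, carried the most peaks. It held 3 WT and 8 TRE-Msi2 peaks. Of all protein-coding genes 3.98% held as many as 3 WT peaks, and 0.699% held as many as 8 TRE-Msi2 peaks. The WT peaks were 2 single bins at 34411215 to 34411414 (score 23) and 34412215 to 34412414 (score 27), and a 2-bin peak at 34413615 to 34414014 (score 23). They lay 154, 1154 and 2554 nt from the gene end. All 3 scored above 19, the median of the WT list, and 13.9% of WT peaks scored higher than the peak of 27.

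Of the TRE-Msi2 peaks of Bmpr1a, 5 lay in the last 5 kb. These 5 peaks, 1800 nt in all, lay between positions 34411215 and 34414614. Their bins lay on the same grid of 200 nt as those of the WT peaks of the gene, they covered all 800 nt of the WT peaks, and 2 of the 5 had no WT counterpart. The peak at 34413615 to 34414014 had the same borders in both lists, with a score of 23 in WT and 36 in TRE-Msi2, which is 1.57 times as high. Over the single-bin positions called in both lists the median ratio was 1.52, with quartiles of 1.31 and 1.75. The score of 36 was the highest of any receptor peak, and 11.3% of TRE-Msi2 peaks scored higher. The peak at the very end, 34411215 to 34411614, scored 28, and the others in the last 5 kb scored 18.3 at 34412015 to 34412414, 21 at 34413015 to 34413214 and 16.3 at 34414215 to 34414614. Those of 18.3 and 16.3 had a deposited p-value of 0.333. By deposited score, the peaks of 36 and 28 were the only 2 TRE-Msi2 receptor peaks above 24.7, the median of that list. The scores of 18.3 and 16.3 are not on the scale of single bins, as set out below.

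The other 3 TRE-Msi2 peaks of Bmpr1a lay inside the gene, at 34422615 to 34422814, 34424815 to 34425014 and 34443815 to 34444014. Their nearest bases were 11554, 13754 and 32754 nt from the gene end. Each was a single bin with a score of 20, the lowest single-bin score in that list, and none had a WT counterpart.

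Acvr2a, a type II receptor shared by activins and some BMPs, spans 48814109 to 48903264 on the plus strand of chromosome 2. It held 0 WT and 4 TRE-Msi2 peaks, all in the last 5 kb. The peaks were at 48899681 to 48899880 (score 20), 48900081 to 48900480 (17.3), 48900881 to 48901280 (16.7) and 48902281 to 48902480 (22). Those of 17.3 and 16.7 were 2 bins wide and had a deposited p-value of 0.333. The scores of such peaks are not on the scale of single bins, as set out below. The 4 peaks ran over 2.80 kb, with gaps of 200 to 1000 nt between them. No deposited score passed the median of the list, and 65.7% of TRE-Msi2 peaks scored higher than 22. Where the peaks of 17.3 and 16.7 would rank on the single-bin scale was not determined. Of the 867 protein-coding genes with 4 or more TRE-Msi2 peaks, 2.19% had no WT peak.

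Bmpr2, the BMP type II receptor, spans 59764279 to 59878081 on the plus strand of chromosome 1. It held 0 WT and 3 TRE-Msi2 peaks, each a single bin, at 59868157 to 59868356 (score 23), 59870357 to 59870556 (22) and 59870757 to 59870956 (23). These also ran over 2.80 kb, but their nearest bases were 9725, 7525 and 7125 nt from the gene end, so none lay in the last 5 kb. All 3 were in the last 10% of the span, and 58.3% of TRE-Msi2 peaks scored higher than 23. Of the 1407 protein-coding genes with 3 or more TRE-Msi2 peaks, 4.19% had no WT peak. A top deposited score of 23 or less, as in Bmpr2 and Acvr2a, was found in 6.11% of the 1407 genes. Of these 86 genes, 17.4% had no WT peak.

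**Figure D2:**
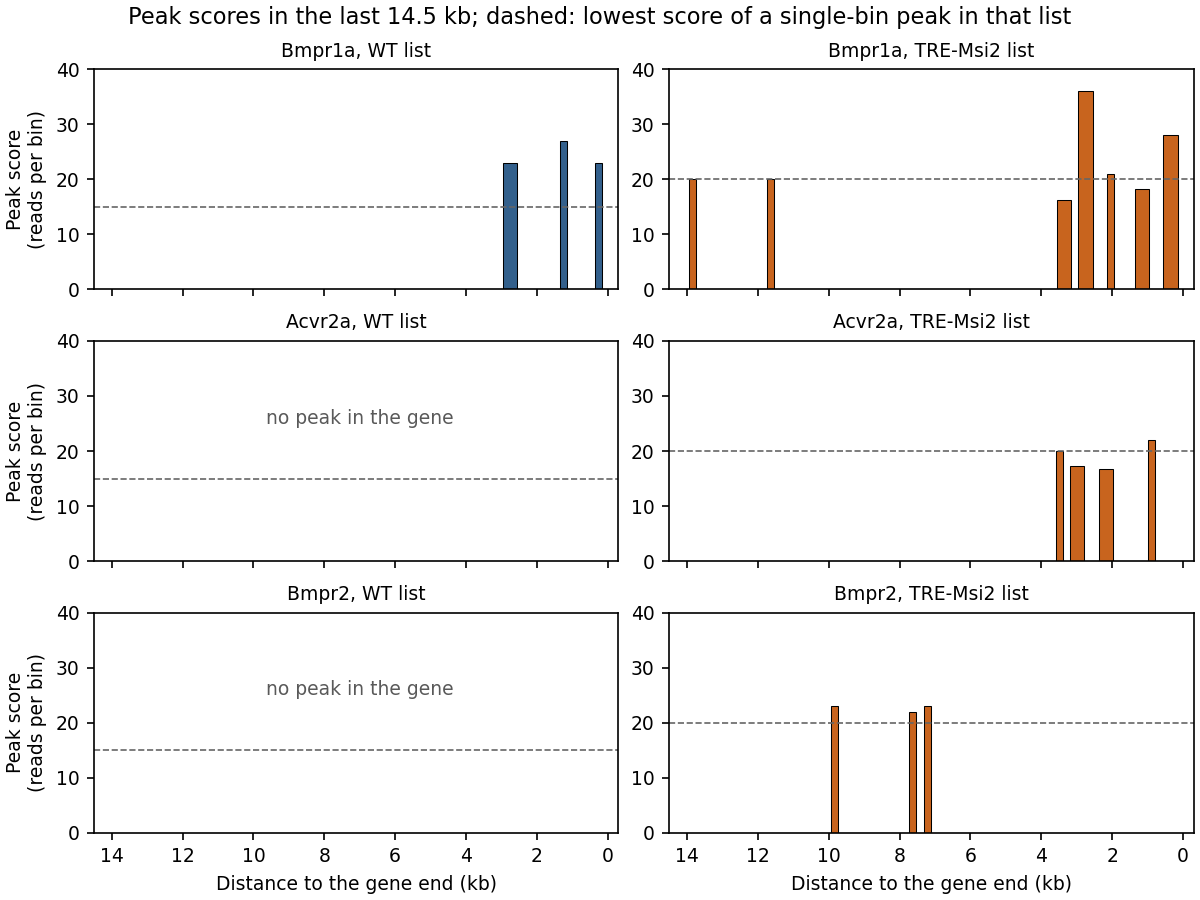
Scores of the peaks in Bmpr1a, Acvr2a and Bmpr2 near the gene end. The horizontal axis is the distance to the gene end in kb, each bar spans 1 peak, its height is the score in reads per bin, and the dashed line is the lowest single-bin score of that list (15 for WT, 20 for TRE-Msi2). The Bmpr1a peaks of 28 and 36 stand above the rest, the bars under the dashed line are joined bins, and the Bmpr1a peak 32754 nt from the end lies outside the plot.

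Acvr1b, a type I receptor for activins, held 1 TRE-Msi2 peak at 101212170 to 101212369 on the plus strand of chromosome 15, 1315 nt from the gene end. Tgfbr1, the type I receptor for TGF-beta, held 1 at 47414729 to 47414928 on the plus strand of chromosome 4, which covers the annotated gene end with 198 of its bases inside. Both scored 20, the lowest single-bin score, and 83.3% of TRE-Msi2 peaks scored higher. Of the 2924 protein-coding genes with exactly 1 TRE-Msi2 peak, 35.5% had no WT peak. The 4 receptors without a WT peak had top deposited TRE-Msi2 scores of 20 to 23. Of the 1272 genes in that range, 58.8% had no WT peak.

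No peak was listed for Acvr1, a type I receptor for BMPs and activins, for Acvr2b, a second activin type II receptor, or for Tgfbr2, the TGF-beta type II receptor. Their spans are 120 kb, 40.6 kb and 87.7 kb, and Acvr1 is the longest of the 8. The absence is one of peaks past the list threshold. A bin with 14 reads in WT or 19 in TRE-Msi2 would stay under the lowest single-bin score, so binding below it was not detectable in these lists.

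**Figure D3:**
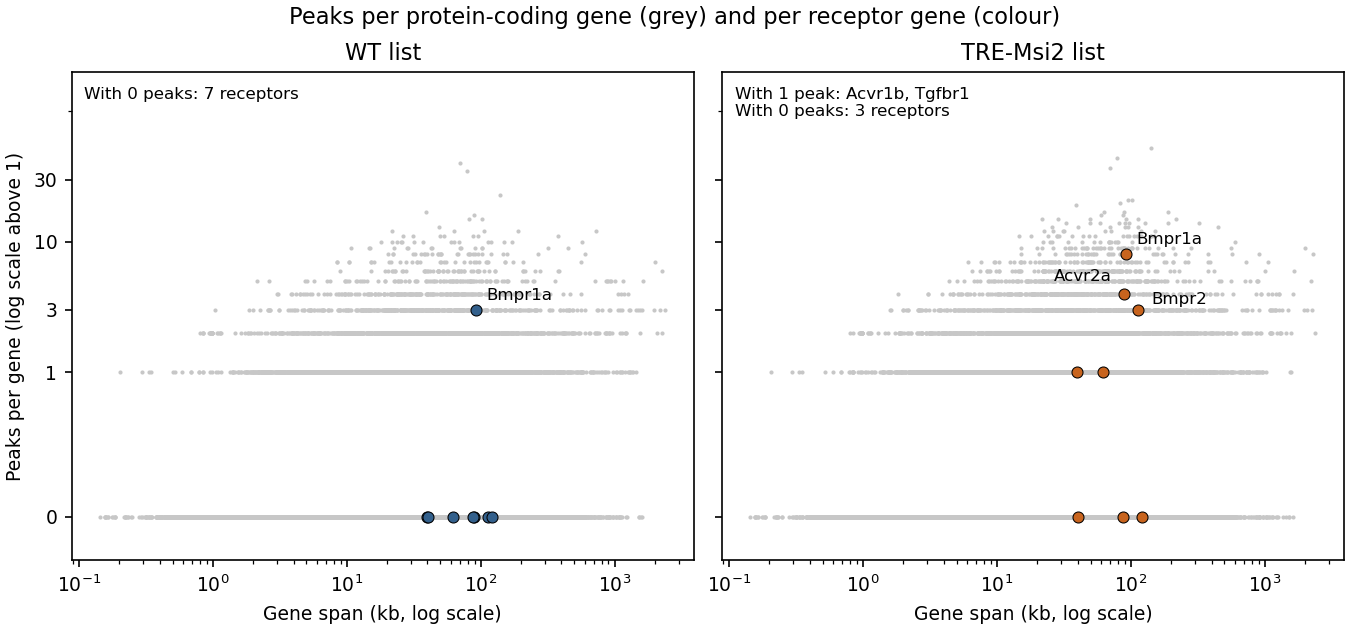
Number of peaks per gene against gene span, both on log scales, for all protein-coding genes (grey) and the 8 receptors (colour), in the WT list and the TRE-Msi2 list. In the TRE-Msi2 panel Bmpr1a stands at 8 peaks, Acvr2a at 4, Bmpr2 at 3, Acvr1b and Tgfbr1 at 1, and 3 receptors at 0.

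Of the 17 TRE-Msi2 receptor peaks, 3 were overlapped by a WT peak, all in Bmpr1a, whereas 57.6% of all TRE-Msi2 peaks were. In the other direction 3 of 3 WT receptor peaks had a TRE-Msi2 counterpart, against 91.3% of all WT peaks. Among single-bin TRE-Msi2 peaks overlap moved with score, so the receptor peaks were set beside peaks of their own width and scores. The 11 single-bin receptor peaks scored 20 to 23, 6 of them exactly 20, and 0 of 11 had a WT counterpart. A rough upper limit of 27.3%, taken as 3 counts of 11, is not an exact interval and treats the peaks as independent. They lie in only 5 genes. In 4 of these the gene held no WT peak, so no counterpart within the span was possible. Of the 4216 single-bin TRE-Msi2 peaks with these scores 16.2% had a WT counterpart. Restricted to the last 5 kb of genes in the receptors' span range, 23.8% of 323 such peaks did. Of the 11 single-bin receptor peaks 5 lay in the last 5 kb, and 0 of these 5 had a WT counterpart. Over all single-bin TRE-Msi2 peaks the share ran from 10.9% at a score of 20 to 23.8% at 23, 67.3% at 30 to 34 and 98.0% at 50 and more.

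**Figure D4:**
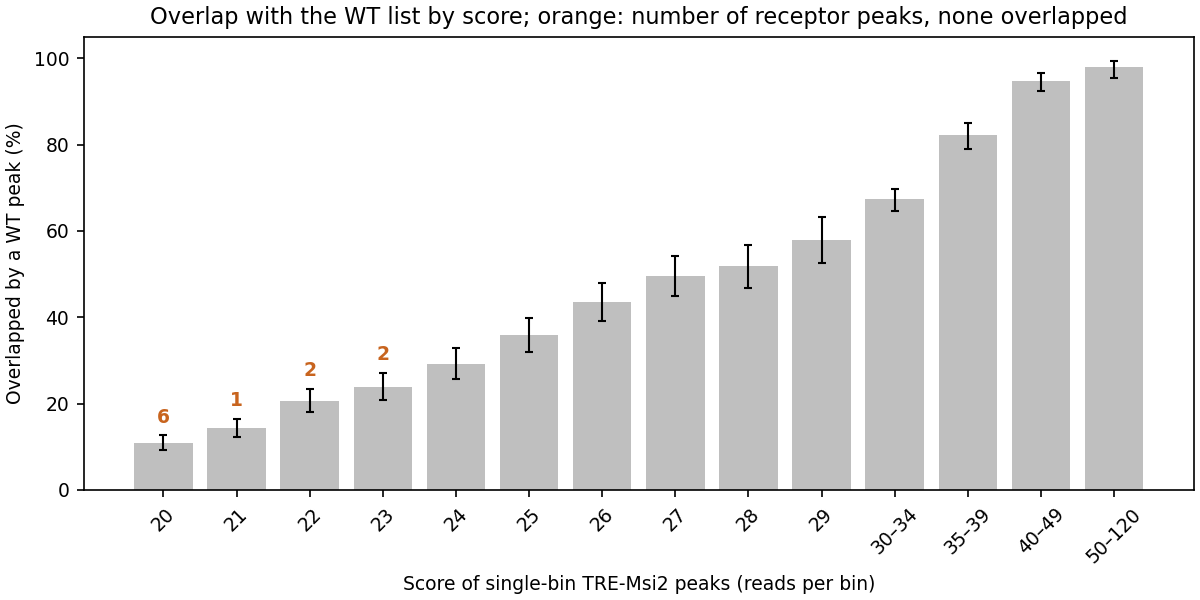
Share of single-bin TRE-Msi2 peaks overlapped by a WT peak, by score in reads per bin, over all such peaks, with exact 95% binomial intervals as error bars. The orange numbers count the receptor peaks at each score (6 at 20, 1 at 21, 2 at 22 and 2 at 23), of which 0 were overlapped, and they all sit where the share is 23.8% or less.

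The remaining 6 TRE-Msi2 receptor peaks were 2 bins wide, and 3 had a WT counterpart. Of these 6, 4 had scores of 16.3 to 18.3, below the single-bin minimum, with a p-value of 0.333. In 1006 peaks of the list with that width and a p-value within 0.01 of it, 3 times the score was within 0.01 of a whole number in 100% and at least 41, which is 1 more than a pair of bins at the minimum of 20. Such values would follow if 2 high bins and a bin with a p of 1 had been averaged, so the deposited score of these peaks is not on the scale of single bins. Times 3, the scores were 55 and 49 in Bmpr1a and 52 and 50 in Acvr2a. Ranked only among the 1006 peaks of this kind, 35.9% and 17.9% of the peaks scored lower than those of Bmpr1a, and 26.4% and 20.2% scored lower than those of Acvr2a. A WT peak overlapped 1 of these 4, the Bmpr1a peak at 34412015 to 34412414. Of the 210 such peaks in the same score range, 68.1% had a WT counterpart.

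Peaks over other genes of the pathway were counted by role. For comparison, 20.3% of all protein-coding genes held a WT peak and 24.9% a TRE-Msi2 peak. Here and among the receptor kinases below, the strand of Bmp3, Smad2, Smad4, Smad7, Id1, Nedd4l, Erbb3 and Insr was not available. Whether their peaks lie on the transcribed strand is therefore not known. Of 15 ligand genes 2 held a peak, Bmp3 and Bmp4, with 1 in each list, and the Bmp4 peaks were on the strand opposite to the gene. Of 10 genes for extracellular inhibitors and carriers, among them Nog, Grem1 and Fst, 0 held a peak in either list. Of 6 further receptors and coreceptors only Acvr1c did. Its peaks also touched Gm13544, and its WT peak was on the opposite strand.

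Downstream of the receptors, 5 of 8 Smad genes held a WT peak and 6 held a TRE-Msi2 peak. Over all protein-coding genes these shares were 20.3% and 24.9%. Smad1 and Smad9, which with Smad5 transmit BMP signals, had top scores of 18 and 17 for WT and 25 and 30 for TRE-Msi2. Smad5 had 3 and 4 peaks, of which 2 in each list were on the opposite strand. Smad2 and the common Smad4 had top TRE-Msi2 scores of 27 and 29.5, the inhibitory Smad7 had 1 TRE-Msi2 peak of 24, and Smad3 and Smad6 had none. Of the 4 Id genes, transcriptional targets of BMP signalling, 0 held a WT peak. Id1 (33), Id2 (16) and Id3 (27) held 1 TRE-Msi2 peak each. The Id2 score is below 20, the lowest single-bin score of that list, so its peak is wider than 1 bin. For comparison, 5.76% of all protein-coding genes were covered in the TRE-Msi2 list alone, which is 23.2% of the genes covered in that list. The difference between the Id genes and this background was not tested.

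Genes for proteins that act on the receptors gave 4 of 8 in each list, with 3 in common. The shares over all protein-coding genes were 20.3% in WT and 24.9% in TRE-Msi2. Nedd4l, a ubiquitin ligase, had top scores of 30 in WT and 37 in TRE-Msi2. Fkbp1a, whose product binds type I receptors, had 17.5 and 23.2, and Strap had 17 and 25. Zfyve9, which presents Smads to the TGF-beta receptor, held a WT peak only (15), and Hgs, an endosomal sorting gene, a TRE-Msi2 peak only (23). Smurf1, Smurf2 and Usp15 held none.

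Among 15 other receptor kinase genes, all of the tyrosine kinase class, the same 6 held peaks in both lists, and 0 held a TRE-Msi2 peak alone. They were Erbb3, Met, Insr, Igf1r, Ephb3 and Ddr1, with 9 WT and 16 TRE-Msi2 peaks in all. Over all protein-coding genes 20.3% held a WT peak and 24.9% a TRE-Msi2 peak. Of the genes with a TRE-Msi2 peak 23.2% had no WT peak. Erbb3 had the highest score, 50 in TRE-Msi2 and 27 in WT, and Met held 2 WT and 5 TRE-Msi2 peaks with top scores of 17 and 24. The peaks of Igf1r were on the opposite strand. Top deposited TRE-Msi2 scores ran from 23 to 50 in the 6 kinase genes and from 20 to 23 in the 4 receptors without a WT peak. Of all protein-coding genes with a top score of 20 to 23, 58.8% had no WT peak. The 8 BMP, activin and TGF-beta receptors gave 1 gene in both lists and 4 in TRE-Msi2 alone. That difference between the families was not tested.

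**Figure D5:**
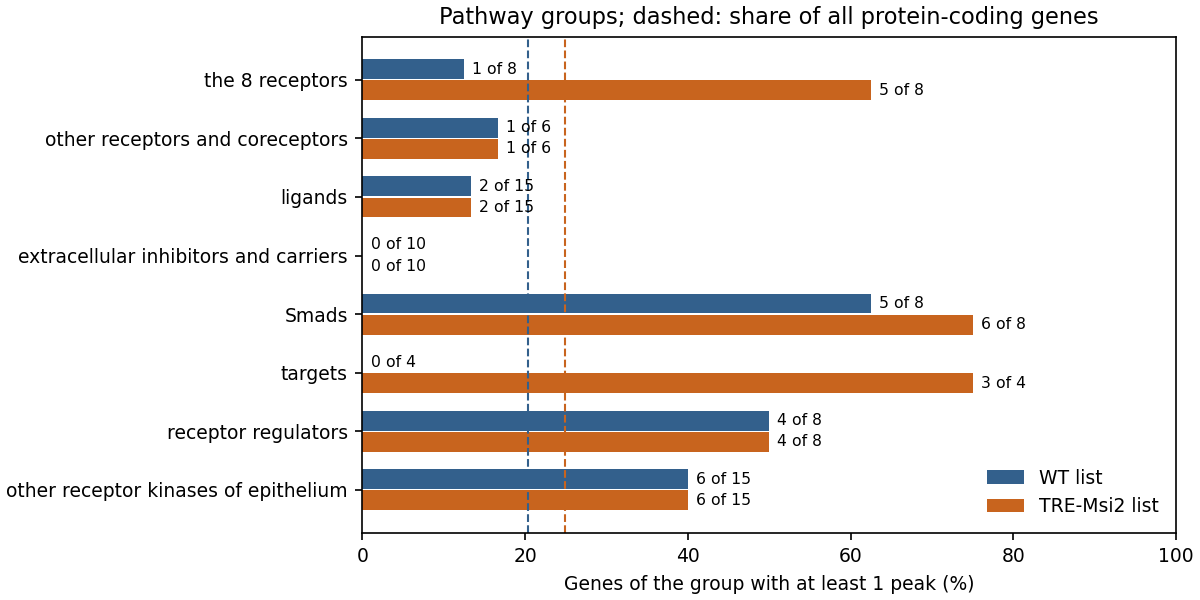
Share of genes with at least 1 peak in each pathway group, with the counts beside the bars, for the WT list (blue) and the TRE-Msi2 list (orange). The dashed lines mark the share over all protein-coding genes (20.3% for WT, 24.9% for TRE-Msi2), and the receptors stand at 1 of 8 and 5 of 8.

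The genes most like Bmpr1a in their number of peaks were few. With 3 WT and 8 TRE-Msi2 peaks over a single gene there were 2 others, Hdlbp, which encodes an RNA-binding protein, and Pfkp, a phosphofructokinase gene. Their spans are 73.0 kb and 69.2 kb, and their top scores were 24.5 and 21 in WT and 32.5 and 43 in TRE-Msi2. For Acvr2a, 10 protein-coding genes had 0 WT and 4 TRE-Msi2 peaks as well. The 5 nearest in span were Gpr107, Crebrf, Fgd4, Zfp445 and Sp1, with top scores of 21 to 27.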

How the data were processed

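MSI2 CLIP-seq libraries (2 WT, 2 TRE-Msi2) were analysed from the deposited peak lists, 1 per genotype. Per the submitters' processing notes, cutadapt, TopHat and the builds mm9 and mm10 were used. Their versions and settings are not stated there. Per the file names, peaks were called with Piranha after duplicate removal on merged libraries. The deposited cell that joins a score and a p-value was split into these other values. Coordinates were read as mm10 and matched to the RefSeq gene table of GRCm38.p6. Gene strand came from the RefSeq promoter table, which gives it for 17492 of the 21900 protein-coding genes.

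A peak counted for a gene when it shared at least 1 base with its span, and peaks were shared between lists when they had at least 1 base in common on the same strand. Shares are given with exact Clopper-Pearson 95% intervals where shown, which cover counting error only. The overlap code was tested on simulated data. Analysis used Python 3.11.15, pandas 2.3.3 and SciPy 1.17.1. With 1 pooled list per genotype no test between groups was possible. The receptors and gene lists were chosen with earlier results of these data known. All 8 receptors were named, as were pathway genes with a peak, and the 5 genes with equal peak counts and the nearest span for the 2 receptors with most peaks. Peak sequences, exons and untranslated regions were not analysed here.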

Additional observations from a re-analysis of the deposited data

How the results depend on the processing

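The alternatives counted a peak only with at least 50% of it in the gene span, kept only the transcribed strand, left out peaks over several genes, asked for a p-value of 0.01 or less, kept the upper 50% of each list by score, shortened the TRE-Msi2 list to the WT length by score, kept single-bin peaks, or extended gene spans by 1 kb. The 1 receptor with a WT peak and its 3 WT peaks stayed within 1.5 times under all of them, at 1 gene and 2 to 3 peaks. In the upper 50% by score, 1 receptor with a TRE-Msi2 peak was left instead of 5 (Bmpr1a), 0 instead of 4 had no WT peak, and 2 peaks instead of 17 remained, both in the last 5 kb. With the TRE-Msi2 list shortened, 3 receptors (Bmpr1a, Bmpr2 and Acvr2a) and 6 peaks were left, of which 3 lay in the last 5 kb, and 2 receptors had no WT peak. When the joined 2-bin scores with a p near 0.333 were first multiplied by 1.5, a choice made after seeing the data, the shortened list gave 3 receptors, 2 of them without a WT peak, and 8 peaks, 6 in the last 5 kb. With single-bin peaks only, 11 TRE-Msi2 peaks were left, 5 of them in the last 5 kb, and 0 had a WT counterpart instead of 3. A p-value of 0.01 or less left 7 peaks in the last 5 kb instead of 11. Counting a peak as shared within 200 nt, or only with 50% of it covered, gave 3 as before. No paired analysis was possible because the libraries of a genotype are pooled in 1 list, and for the same reason no library could be left out. Depth is unknown, which limits every comparison of the 2 lists.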

Other observations

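The nearest peak outside the span was found for each receptor gene, without a comparison to other genes. For Bmpr1a it was 24.0 kb away over Mmrn2 in WT, and 23.5 kb away over Ldb3, on the other side of the gene, in TRE-Msi2. For Acvr2a it was 255 kb away in WT and 28.4 kb in TRE-Msi2. The nearest WT peak beyond Bmpr2 was 104 kb away over Fam117b. Beyond Acvr1, the nearest peak in either list lay 160 kb away over Acvr1c and Gm13544. For Tgfbr2 it was 12.6 kb away in WT (score 17) and 12.4 kb in TRE-Msi2 (24.2), over Gadl1 on the opposite strand. For Acvr2b the nearest WT peak was 421 kb away and the nearest TRE-Msi2 peak, over Acaa1a, 51.3 kb. For Acvr1b the same bin over Grasp, 18.7 kb away and on the opposite strand, scored 17 in WT and 20 in TRE-Msi2.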
